A study of Mus musculus with 6 samples.

Results

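In all, 9 genes of cytosolic and endosomal nucleic acid sensing were examined in mammary tumours of F1 mice: Ifih1, Dhx58, Eif2ak2, Adar, Zbp1, Trim25, Tlr3, Samhd1 and Mavs. They were taken by symbol from all probe sets whose platform annotation gives exactly 1 gene symbol, which gave 20 probe sets of 9 genes out of 12393 genes and 22626 probe sets in all. The tumours came from adult F1 females in which 1 parent carried PyMT, the polyomavirus middle T oncogene, so every tumour of both crosses grew under that transgene. The PyMT parent was crossed to the inbred strain AKR/J for 3 samples (AKR F1 tumours) and to DBA/2J for 3 samples (DBA F1 tumours). The promoter that drives the transgene and the strain of the PyMT parent are not given in the sources used here. The study asked how basal expression differs between the genotypes. Each tumour RNA was read on 1 Affymetrix array, and all levels below are deposited log2 values, so that a difference of 1 is a 2-fold ratio. Nothing in the labels says that the samples came from separate animals, so p-values measure only the spread between these samples.

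Cells recognise foreign or misplaced nucleic acid through receptors in the cytosol and in endosomes. Ifih1 encodes MDA5, a helicase that binds long duplex RNA and signals through Mavs, an adaptor on mitochondria, and Dhx58 encodes LGP2, a related helicase without the signalling domains. Tlr3 reads duplex RNA inside endosomes, Eif2ak2 encodes PKR, which halts translation on binding such RNA, and Zbp1 binds Z-form nucleic acid and can trigger necroptosis. Trim25 is a ubiquitin ligase of the RIG-I branch, Adar edits adenosine to inosine in duplex RNA, and Samhd1 breaks down deoxynucleotides. Many of these genes are themselves known to be induced by interferon.

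At the brightest of their probe sets, all 9 genes lay lower in AKR F1 than in DBA F1 tumours, by 0.05 to 1.29 log2 units. Of all 12393 genes, 5606 did. The median difference of the 9 was -0.62 (AKR minus DBA), against 0.05 over all probe sets. In brightness deciles 7 to 9, which hold these 9 probe sets, the medians over all probe sets were -0.07, -0.14 and -0.21. Of the 20 sensor probe sets, 16 were lower and 4 higher in AKR F1 tumours, with a median of -0.53. The widest differences were those of the RNA helicase genes Dhx58 (2.45-fold) and Ifih1 (2.43-fold) and of Zbp1 (1.92-fold), and the narrowest was that of the adaptor gene Mavs (1.04-fold). None of the 20 probe sets passed an adjusted p of 0.05 by limma (Benjamini-Hochberg over all probe sets), where 0.0972% of all probe sets passed. The smallest adjusted p among them was 0.0837 by limma. At an adjusted p of 0.10 by limma, 4 of 20 were lower in AKR F1 tumours, where 2.25% of all probe sets were. At an unadjusted p under 0.05, 10 were lower and 2 higher in AKR F1 tumours, where 13.2% and 12.9% of all probe sets were. The 3 values of each cross lay apart, with AKR lower, at 10 of the 20 probe sets (15.8% of all probe sets) and, with AKR higher, at 2 of 20 (23.4% of all probe sets). In whole tumour RNA, fewer cells of a type and less RNA per cell cannot be told apart.

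The arrays shared a common level, with medians from 7.52 to 7.57, but not a common spread. AKR replicate 2 had the narrowest values (SD 1.76, against 1.90 to 2.02 on the others), and it read lowest of its cross for 8 of the 9 sensor genes and for 68.7% of other genes in brightness deciles 7 to 9, the range that holds the 9 genes. DBA replicate 1 read lowest of its cross for 8 of the 9 sensor genes, against 29.5% of those other genes. It also carried the highest means of 6 skeletal muscle markers (11.55, against 5.99 to 9.78 on the others) and of 4 adipocyte markers (8.61, against 5.77 to 6.71). Luminal epithelial markers of mammary tumour cells, Epcam and Krt8 among them, lay bright on all arrays, with means over 8 genes of 11.32 to 11.59 in AKR and 11.13 to 11.41 in DBA F1 tumours. Differences also shifted with brightness: the median over all probe sets was 0.23 in decile 3 and -0.21 in decile 9.

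**Figure D1:**
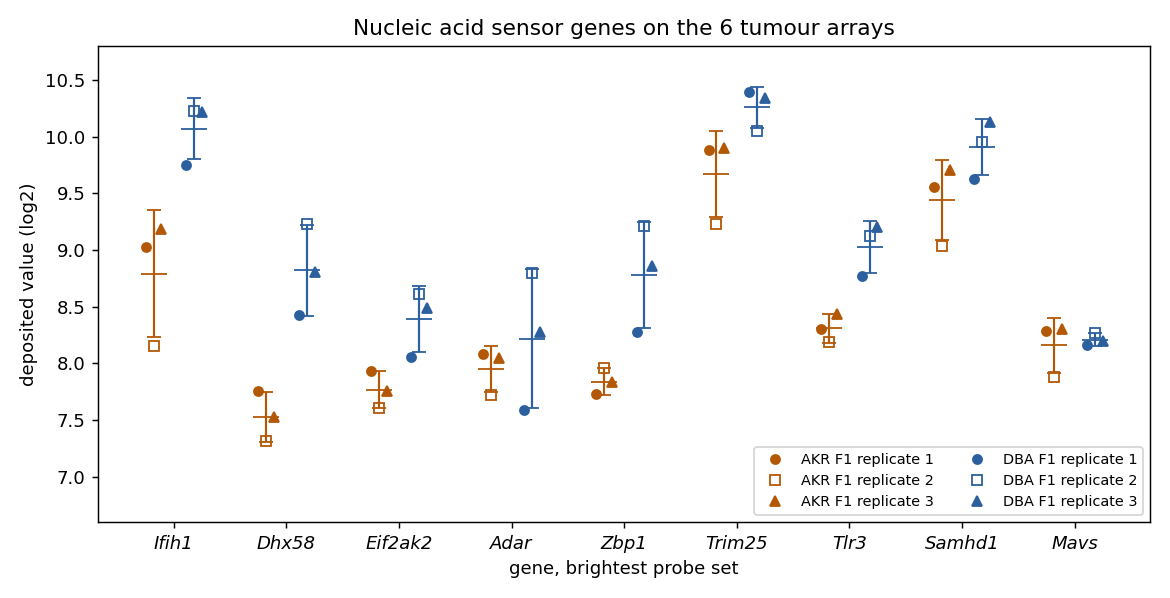
Deposited log2 values (vertical axis) of the brightest probe set of each sensor gene (horizontal axis) on the 3 AKR F1 (orange, left) and 3 DBA F1 (blue, right) arrays, with mean and SD bars, and symbols marking the replicate. For Ifih1, Dhx58, Eif2ak2, Zbp1, Trim25 and Tlr3 all AKR points lie under all DBA points, while those of Adar, Samhd1 and Mavs overlap, and heights of different genes cannot be compared because they come from different probes.

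Promoters are printed for 3 genes, chosen after their matches and levels were seen. Ifih1 and Eif2ak2 hold an interferon-type motif, and Mavs holds none. The windows of Tlr3 and Trim25, also without a match though both genes lay lower in AKR F1 tumours, are not printed. Whether motifs bear on the levels was not tested. All are RefSeq windows of GRCm38.p6, from 250 bases before to 50 bases after the gene's start, given 5′ to 3′ on the gene's strand. Ifih1 lies at chr2:62646206-62646505 on the minus strand, Eif2ak2 at chr17:78882523-78882822 on the minus strand, and Mavs at chr2:131233813-131234112 on the plus strand. Capitals mark matches to the core of the interferon-stimulated response element (GAAANN followed directly by GAAA) or to the STAT-binding GAS element (TTCNNNGAA), each searched on both strands.
Ifih1: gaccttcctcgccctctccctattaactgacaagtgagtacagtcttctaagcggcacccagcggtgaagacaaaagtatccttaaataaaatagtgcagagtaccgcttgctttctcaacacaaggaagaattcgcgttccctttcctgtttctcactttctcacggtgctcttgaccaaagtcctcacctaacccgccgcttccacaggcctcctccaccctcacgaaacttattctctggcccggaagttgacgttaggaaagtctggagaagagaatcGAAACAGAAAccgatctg
Eif2ak2: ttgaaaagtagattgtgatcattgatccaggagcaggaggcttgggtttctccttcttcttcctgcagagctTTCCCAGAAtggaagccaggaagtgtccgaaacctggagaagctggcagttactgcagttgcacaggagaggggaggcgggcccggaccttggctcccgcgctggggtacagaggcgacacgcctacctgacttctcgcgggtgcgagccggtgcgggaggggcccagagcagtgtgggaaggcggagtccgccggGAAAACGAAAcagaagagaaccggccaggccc
Mavs: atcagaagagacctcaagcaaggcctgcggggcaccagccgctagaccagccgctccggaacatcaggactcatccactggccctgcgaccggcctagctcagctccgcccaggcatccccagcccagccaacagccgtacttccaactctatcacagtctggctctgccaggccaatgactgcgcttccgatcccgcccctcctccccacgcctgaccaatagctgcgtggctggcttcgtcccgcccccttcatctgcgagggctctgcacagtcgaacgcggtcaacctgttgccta

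The table of promoters held 9 windows of 7 of the genes (3 of Adar), and none of Dhx58 or Zbp1. The response element core was found in 2 of the 9 windows, at bases 33 to 42 after the start in Ifih1 and at bases 19 to 28 in Eif2ak2, and in 3.44% of all 32851 windows. The GAS letters were found in 3 of the 9, those of Eif2ak2, Samhd1 and 1 of the Adar windows, and in 8.3% of all windows. The windows of Tlr3 and Trim25 held no exact match to either motif. At their brightest probe sets both genes lay lower in AKR F1 tumours (-0.72 and -0.59) with the crosses apart. Of the genes with GAS letters, the crosses overlapped for Samhd1 and Adar and lay apart for Eif2ak2, at the brightest probe sets. Other probe sets differed from this: the dimmer one of Eif2ak2 overlapped, and the other Samhd1 probe sets lay apart, in opposite directions. No match of one motif overlapped a match of the other. Only exact matches were counted. Stretches close to the response element core were therefore left out, such as gaaagtgaac in the Adar window with GAS letters and tttcactttg in the Tlr3 window. The matches describe letters only and were not tested as binding sites.

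Among the helicase receptors, Ifih1 read 9.03, 8.15 and 9.19 in AKR F1 tumours, against 9.75, 10.23 and 10.22 in DBA F1 tumours. Every AKR value was under every DBA value, with a gap of 0.57 between the nearest arrays, and AKR replicate 2 was far below the other AKR arrays. The difference was -1.28 (SE 0.293, 95% interval -1.97 to -0.58, adjusted p = 0.0992 by limma), where probe sets of that brightness decile had a median of -0.21. Dhx58 read 7.76, 7.32 and 7.53 in AKR F1 tumours, against 8.43, 9.23 and 8.81 in DBA F1 tumours. The crosses again lay apart, by 0.67, and DBA replicate 2 was highest. The Dhx58 difference was -1.29 (SE 0.226, 95% interval -1.83 to -0.75, adjusted p = 0.0837 by limma).

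The other Dhx58 probe sets did not follow the brightest. The probe set 1420769_at differed by 0.11 (95% interval -0.21 to 0.44) and 1420768_a_at by -0.11 (-0.89 to 0.68), both among the dimmest 3 deciles, and in both the crosses overlapped. On 1420768_a_at the DBA arrays read 5.4, 6.59 and 5.31, with replicate 2 well above the rest, as on the brightest probe set. The mean over the Dhx58 probe sets differed by -0.43 (adjusted p = 0.223 by limma).

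Zbp1, the Z-form nucleic acid sensor, read 7.73, 7.96 and 7.84 in AKR F1 tumours, against 8.28, 9.21 and 8.86 in DBA F1 tumours. The AKR values were tight, and the DBA values were spread with replicate 1 nearest to AKR. The difference was -0.94 (SE 0.237, 95% interval -1.50 to -0.38, adjusted p = 0.108 by limma). A second Zbp1 probe set differed by -0.82, with the crosses again apart.

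Tlr3, the endosomal receptor, read 8.30, 8.19 and 8.44 in AKR F1 tumours, against 8.77, 9.12 and 9.20 in DBA F1 tumours. No AKR array reached the lowest DBA array. The difference was -0.72 (SE 0.154, 95% interval -1.08 to -0.35, adjusted p = 0.0924 by limma). A dimmer Tlr3 probe set differed by -0.84, in a decile whose median ran the other way (0.23), and its crosses were also apart.

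Eif2ak2, the PKR gene, read 7.93, 7.61 and 7.76 in AKR F1 tumours, against 8.06, 8.61 and 8.49 in DBA F1 tumours, a difference of -0.62 (SE 0.178, 95% interval -1.04 to -0.20, adjusted p = 0.124 by limma). The crosses were separated by 0.13 only, between AKR replicate 1 and DBA replicate 1. The dimmer Eif2ak2 probe set differed by -0.39, and there the crosses overlapped.

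Trim25, the ubiquitin ligase gene, read 9.88, 9.23 and 9.90 in AKR F1 tumours, against 10.39, 10.05 and 10.34 in DBA F1 tumours. That probe set (1419879_s_at) and the dimmest of Trim25 also have no accession in the annotation. The crosses lay apart by 0.16, with a difference of -0.59 (95% interval -1.10 to -0.09, adjusted p = 0.157 by limma). That interval holds the median of all probe sets of the same brightness decile (-0.21). The difference was -0.36 after quantile normalization and -0.38 without AKR replicate 2. A further Trim25 probe set (1425974_a_at) differed by -0.75 and had the crosses apart, while the dimmest one (1426415_a_at) differed by 0.02, with AKR values of 7.60, 7.02 and 7.24 inside the range of the DBA values of 6.94, 7.81 and 7.07.

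Samhd1, the deoxynucleotide hydrolase gene, was read by 4 probe sets that went opposite ways. The brightest read 9.56, 9.04 and 9.71 in AKR F1 tumours, against 9.63, 9.95 and 10.13 in DBA F1 tumours, so that the crosses overlapped, and it differed by -0.47 (95% interval -0.98 to 0.04, adjusted p = 0.214 by limma). The probe set 1418131_at read 8.59, 8.40 and 8.51 in AKR F1 tumours, against 9.11, 8.99 and 9.16 in DBA F1 tumours, and differed by -0.59 (95% interval -0.86 to -0.31, adjusted p = 0.0876 by limma). By contrast, 1420272_at read 9.34, 9.95 and 9.13 in AKR F1 tumours, against 8.85, 8.79 and 8.86 in DBA F1 tumours, and differed by 0.64 (95% interval 0.13 to 1.15, adjusted p = 0.146 by limma). The probe set 1420273_x_at followed it, with a difference of 0.54. The pairs also diverged inside the AKR cross: replicate 2 was lowest on the first pair and highest on the second. The platform annotation gives the symbol but no accession for 1420272_at and 1420273_x_at, and whether they read Samhd1 transcripts was not tested. Averaged over the 4 probe sets, Samhd1 differed by 0.03 (adjusted p = 0.85 by limma), a value that rests on including that pair.

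**Figure D2:**
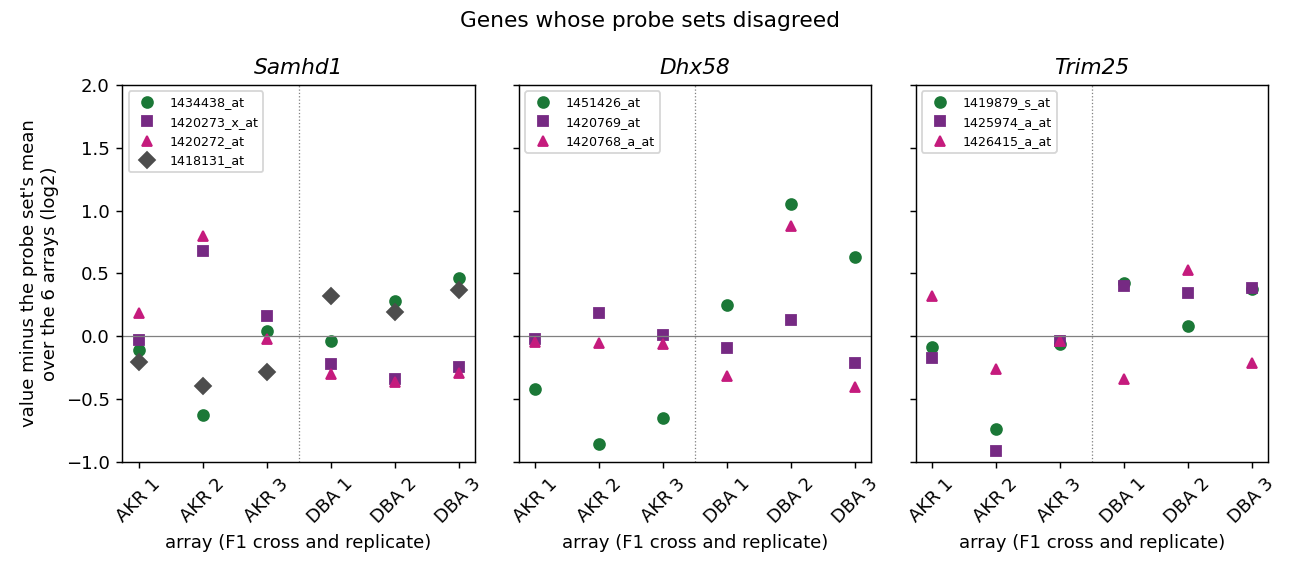
Values of each probe set minus its own mean over the 6 arrays (log2, vertical axis) for Samhd1, Dhx58 and Trim25 on the AKR F1 (left) and DBA F1 (right) arrays. A pair of Samhd1 probe sets stands high on AKR replicate 2 where the other pair stands low, the brightest Dhx58 probe set separates the crosses while its dim ones do not, and 1 of 3 Trim25 probe sets differs from the rest.

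Adar, the RNA editing enzyme gene, read 8.08, 7.72 and 8.05 in AKR F1 tumours, against 7.59, 8.80 and 8.28 in DBA F1 tumours. DBA replicate 1 was the lowest of all 6 arrays and DBA replicate 2 the highest, and the difference of -0.27 had a 95% interval of -0.99 to 0.45 (adjusted p = 0.544 by limma). The difference was -0.59 without DBA replicate 1, and its sign turned without DBA replicate 2 (0.02). Mavs, the mitochondrial adaptor gene, read 8.29, 7.88 and 8.30 in AKR F1 tumours, against 8.16, 8.27 and 8.20 in DBA F1 tumours. The DBA values lay within the AKR range, and the difference was -0.05 (95% interval -0.41 to 0.30, adjusted p = 0.815 by limma), turning to 0.09 without AKR replicate 2, 0.01 after quantile normalization and 0.07 with array weights. A very dim second Mavs probe set differed by -0.13.

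**Figure D3:**
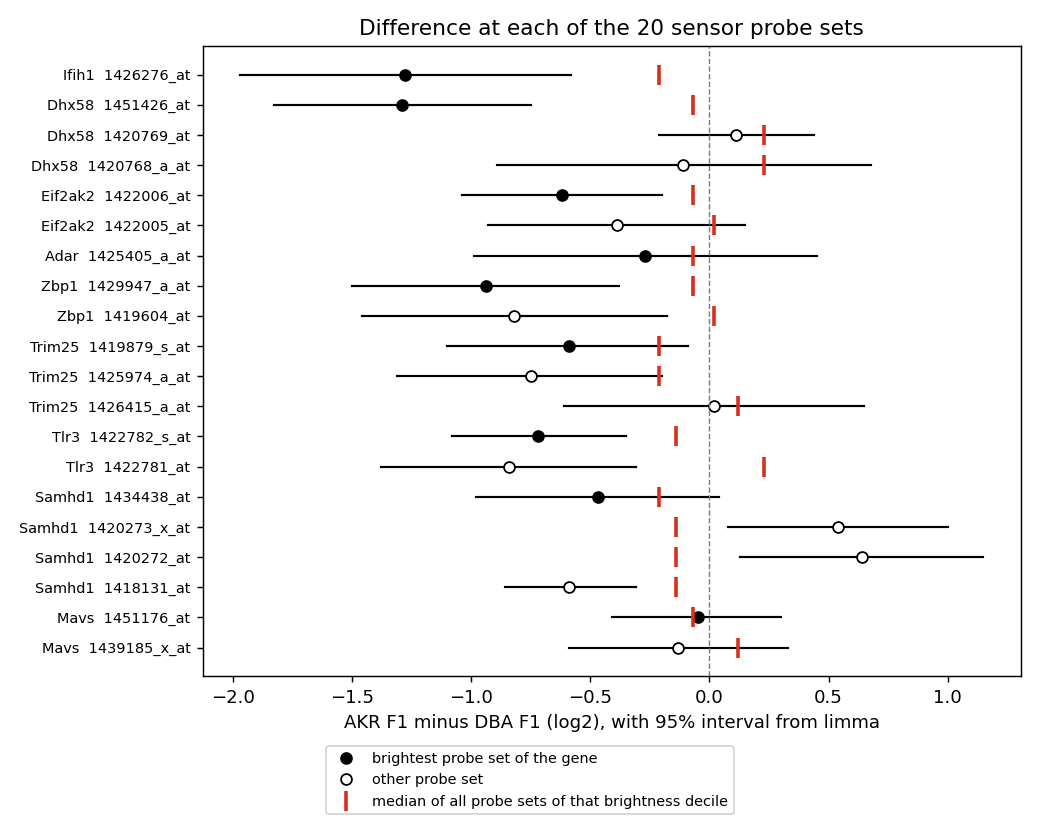
AKR F1 minus DBA F1 differences (log2, horizontal axis) at the 20 probe sets of the 9 genes, with 95% intervals from limma, filled points for the brightest probe set of a gene and red ticks for the median of all probe sets of the same brightness decile. The intervals of Ifih1, Zbp1, Tlr3, the brightest Dhx58 and Eif2ak2 probe sets and Samhd1 1418131_at lie below 0 and below their ticks. Those of Mavs and Adar span 0, and a pair of other Samhd1 intervals lies above 0.

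Whether 2 of these genes differed unequally was read within each array, for 5 pairs. Mavs itself differed by -0.05, so pairs with Mavs mostly repeat the difference of the other gene. The value of Ifih1 minus that of Mavs was 0.74, 0.27 and 0.89 in AKR F1 tumours, against 1.60, 1.96 and 2.01 in DBA F1 tumours. The crosses did not overlap in this quantity, whose difference was -1.22. For Dhx58 minus Mavs the difference was -1.24, for Tlr3 minus Mavs -0.66, for Ifih1 minus Adar -1.01 and for Zbp1 minus Adar -0.67. For each of these 5 pairs the exact permutation p (two-sided) was 0.1, also after Benjamini-Hochberg adjustment, and 3 against 3 arrays allow none smaller, and the pairs were picked after their values were seen.

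The arrays that stood apart moved these values. Without AKR replicate 2 the difference of Ifih1 was -0.96, of Samhd1 -0.27 and of Trim25 -0.38, and no sensor probe set passed. Without DBA replicate 1, Dhx58 (-1.49, adjusted p = 0.0376 by limma) and Zbp1 (-1.19, adjusted p = 0.0418 by limma) passed, where 1.16% of all probe sets passed. Without both arrays, 5 of 20 sensor probe sets passed, all lower in AKR F1 tumours, where 2.9% of all probe sets passed. They were those of Ifih1 (-1.12), Dhx58 (-1.38), Tlr3 (-0.79) and a pair for Zbp1 (-1.25 at the brightest). DBA replicate 1 read lowest of its cross for 8 of the 9 sensor genes, so leaving it out widens most of their differences. These passes are therefore no separate support, and the shares of all probe sets are no fair measure for them. Without DBA replicate 2, which read highest for 6 of the 9 genes, Zbp1 differed by -0.73 and Dhx58 by -1.09, and neither passed.

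**Figure D4:**
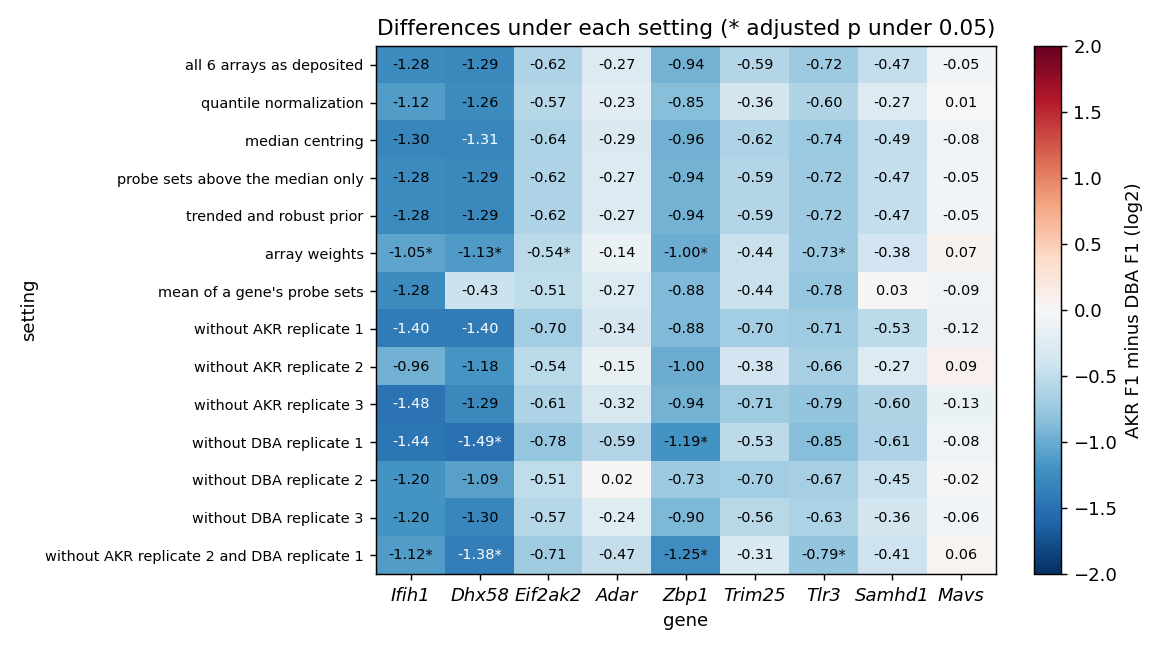
AKR F1 minus DBA F1 difference (log2, printed and coloured) of each sensor gene (columns) under each setting (rows), with a star where the adjusted p by limma is under 0.05. Ifih1, Dhx58, Eif2ak2, Zbp1, Trim25 and Tlr3 stay negative in every row, Mavs, Samhd1 and Adar turn sign in some, and stars appear with array weights or without DBA replicate 1.

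Cell type markers were read on the same arrays. Of 9 measured macrophage markers, 7 lay lower in AKR F1 tumours (median difference -0.23) and none passed by limma; they averaged 9.05, 8.28 and 8.88 on the AKR arrays, against 9.07, 8.65 and 9.26 on the DBA arrays. Of 5 dendritic cell markers, 1 lay lower in AKR F1 tumours (median 0.21), as did 1 of 7 T and NK cell markers (median 0.28) and 4 of 6 B and plasma cell markers (median -0.30). Of the B and plasma cell list, Pou2af1 read 5.0, 5.23 and 5.1 in AKR F1 tumours, against 6.65, 10.09 and 8.27 in DBA F1 tumours, a difference of -3.23 (adjusted p = 0.103 by limma) with the crosses apart. Jchain read 6.39, 5.54 and 6.30 in AKR F1 tumours, against 8.66, 5.69 and 8.29 in DBA F1 tumours, and its crosses overlapped. Of the same list, Pax5 (0.42, crosses apart) and Cd79a (0.39, crosses overlapping) lay higher in AKR F1 tumours. In AKR F1 tumours 5 of 7 myoepithelial and smooth muscle markers were at a lower level (median -1.48, none passed by limma). The keratin genes Krt5 (0.99) and Krt14 (0.71) went the other way, and both read lowest, at 7.43, on DBA replicate 2. The 7 markers averaged 8.48, 8.71 and 8.28 on the AKR arrays, against 8.48, 9.77 and 10.02 on the DBA arrays, lowest of the DBA arrays on replicate 1, where 8 of the 9 sensor genes were also lowest of that cross. The part of these cell types in the sensor differences was not tested.

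Among 21 measured further genes of RNA sensing and its adaptors, 14 lay lower in AKR F1 tumours (median -0.20, and -0.06 without AKR replicate 2), and none passed by limma. An unadjusted p under 0.05 was seen for 7 of 21, beside 26.1% of all probe sets. The 4 with the smallest p were Ddx60, a helicase linked to RNA sensing (-2.72, adjusted p = 0.0517 by limma), Ifit1, which binds viral RNA ends (-2.59), the transcription factor gene Irf7 (-1.19) and the helicase gene Dhx15 (-0.43). Ddx60 read 5.52, 5.52 and 5.95 in AKR F1 tumours, against 7.69, 8.67 and 8.80 in DBA F1 tumours, and it passed in 6 alternative settings, among them median centring (adjusted p = 0.0445 by limma) and quantile normalization (adjusted p = 0.0486 by limma). Among signal relays downstream of Mavs, the kinase adaptor genes Azi2 and Tank differed by -0.64 and -0.62, the kinase gene Tbk1 by -0.47, Fadd by 0.41, Traf6 by -0.13, Irf3 by 0.10, Ikbke by -0.02 and Tradd by 0.00. Myd88, an adaptor of other Toll-like receptors, differed by -0.30, Tlr7 by 0.17 and Tlr8 by 0.28.

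DNA sensing genes were mixed. Of 11 measured, 8 were lower in the AKR cross, with a median of -0.17, none passed by limma, and 3 had an unadjusted p under 0.05, about the share of all probe sets (26.1%). The median was -0.04 without AKR replicate 2 and DBA replicate 1. The smallest p were those of the RNA polymerase III subunit gene Polr3d (0.39), Tlr9, the endosomal DNA receptor gene (0.51), Ifi204 (-0.55) and Polr3f (-0.35). Sting1, the adaptor of cytosolic DNA sensing, read 9.97, 9.80 and 9.74 in AKR F1 tumours, against 9.57, 10.56 and 9.89 in DBA F1 tumours, and the crosses overlapped (-0.17).

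Genes that bind, edit or degrade duplex RNA had a median difference of 0.01 over 15 measured (-0.02 to 0.07 with 1 array left out), and none passed by limma, with 4 at an unadjusted p under 0.05, again about the share of all probe sets (26.1%). Pnpt1, the mitochondrial RNA-degrading polynucleotide phosphorylase, read 7.69, 7.44 and 7.50 in AKR F1 tumours, against 8.47, 8.31 and 8.41 in DBA F1 tumours, a difference of -0.85 (adjusted p = 0.0666 by limma) with the crosses well apart. The zinc finger RNA-binding gene Zfr differed by -0.80, Tarbp2, a partner of Dicer, by 0.42 and the editing enzyme homologue Adarb2 by 0.41. Of 11 measured genes of the stress translation and necroptosis arms, none passed by limma and 0 had an unadjusted p under 0.05, against 26.1% of all probe sets. These included the eIF2 kinase genes Eif2ak4 (-0.55), Eif2ak1 (0.14) and Eif2ak3 (-0.06), the stress transcription factor gene Atf4 (0.32), Eif2b1 (-0.27), Ddit3 (-0.24) and the necroptosis kinase gene Ripk3 (0.35). Rnaseh2c, the 1 gene measured of a list of nucleic acid clearance genes that cause Aicardi-Goutières syndrome in humans, differed by -0.02.

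Type I interferon ligand genes mostly lay higher in AKR F1 tumours, the other way from the sensors. Of 7 measured, 6 lay higher in AKR F1 tumours (median 0.37, 0.22 without AKR replicate 2 and 0.20 after quantile normalization), none passed by limma, and 2 had an unadjusted p under 0.05, where 26.1% of all probe sets did. The smallest p were those of Ifna1 (0.49), Ifna11 (0.31), Ifnab (0.41) and Ifna2 (0.28), and Ifnb1 differed by 0.60. These probe sets were dim, from 4.53 for Ifna11 on DBA replicate 1 to 7.58 for Ifnb1 on AKR replicate 2, and dim probe sets as a whole read higher in AKR F1 tumours. Interferon alpha genes are near-identical copies, so their probe sets may share transcripts.

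The genes whose profile over the 6 arrays was nearest to a sensor were ranked by the root mean square difference in log2 units, with each gene centred on its own mean, among 12384 other genes. Nearest to Ifih1 were Cavin2 (0.084), Tnfaip8 (0.0916) and Tmem30a (0.112). Nearest to Dhx58 were Ccn1 (0.0659), Bnip2 (0.091) and Hip1 (0.113), and nearest to Zbp1 were Kdm7a (0.108), Rasa3 (0.121) and Hsd11b1 (0.126). Eif2ak2 lay nearest to Rbpj (0.0544), Tlr3 to Zswim6 (0.075), Trim25 to Sft2d1 (0.0305), Samhd1 to Cdc23 (0.043), Adar to Asrgl1 (0.0499) and Mavs to Cd81 (0.0392). Within the 9 genes, the closest pair was Eif2ak2 and Tlr3 (0.127). Ifih1 lay 0.269 from its nearest member, Dhx58, and Dhx58 (0.268) and Adar (0.267) lay about as far from theirs. Distances to other genes are the smallest of 12384 over 6 arrays, so they cannot be set against distances within the 9 genes. None was tested.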

How the data were processed

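Total RNA of 6 snap-frozen tumours was extracted with Trizol and labelled with biotin, per the labels' protocols, and the source names gave the crosses; replicate numbers only name samples in accession order. The authors deposited log2 values, read as log2 from their range. Per the submitters' processing notes, MAS5 and RMA were used, without versions or a statement of which made these values. How background was treated is also not stated there.

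Control probe sets (AFFX) were left out. In the platform annotation 20380 probe sets carried 1 symbol, 691 several and 1555 none. Each gene was represented by its brightest probe set over the 6 arrays. limma 3.58.1 in R 4.3.3 compared AKR minus DBA over all 22626 probe sets (lmFit, eBayes, two-sided, Benjamini-Hochberg, adjusted p 0.05); intervals are 95% from that fit. The fit was tested on simulated arrays with independent noise. It recovered 52% of 50 changes of 1 log2 unit and 80% of 50 changes of 2, with 11 false calls among 173. The simulated arrays had no array that stood apart and gave far more calls than the 22 of the real fit, which eases the adjusted threshold. Recovery in the real data may therefore be lower. No detection calls were used, so dim values can lie at background. Figures were drawn with matplotlib 3.10.9. Precision is limited by 3 arrays per cross.

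The members, lists, motifs, arrays left out together and naming rule were chosen with earlier results of these data known. The rule named all 9 sensor genes, the 4 genes of each list with the smallest p, any that passed and the 3 genes nearest to each sensor; other genes named were chosen after their values were seen. Alternatives were quantile normalization, median centring, bright probe sets only, a trended and robust prior, array weights (gene-by-gene method, since the default did not converge), averaging the probe sets of a gene, leaving out arrays, and 0.10 as the threshold.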

Additional observations from a re-analysis of the deposited data

How the results depend on the processing

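The median difference of the 9 sensor genes kept its sign under every setting tried, from -0.78 to -0.44. Over all probe sets 22 passed by limma as deposited, against 36 after quantile normalization, 102 among bright probe sets only, 3712 with array weights, 810 at an adjusted p of 0.10, 657 without AKR replicate 2 and DBA replicate 1 together and 1 gene with probe sets averaged; leaving out 1 array gave 1 to 263. Sensor probe sets passing numbered 10 with array weights, 4 at an adjusted p of 0.10, 5 without both arrays and 0 to 2 with 1 array left out. Sensor genes passing at the brightest probe set numbered 5, 3, 4 and 0 to 2 in those settings. With array weights these were Ifih1 (-1.05), Dhx58 (-1.13), Eif2ak2 (-0.54), Zbp1 (-1.0) and Tlr3 (-0.73). In that setting AKR replicate 2 had the lowest weight (0.192), and 16.4% of all probe sets passed. The 10 sensor probe sets passing there included a pair for Samhd1, neither of them its brightest, so not all 10 were lower in AKR F1 tumours. The cause of these changes was not tested. Of the further lists, array weights gave calls for 5 of 21 RNA sensing and adaptor genes, 3 of 15 duplex RNA genes and 1 of 11 DNA sensing genes. In that setting 16.4% of all probe sets passed. RNA sensing and adaptor genes had 1 or 2 calls in 5 further settings, where 0.141% to 2.9% of all probe sets passed. Duplex RNA genes had 1 call of 12 among bright probe sets only, where 0.902% passed. All other list counts at an adjusted p of 0.05 stayed at 0. No paired analysis was possible because the labels give no replicate numbers shared between the crosses. With 3 arrays per cross and no detection calls, small differences at low signal cannot be resolved.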

Other observations

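Some further genes of these pathways stood out on AKR replicate 2 alone, and they were chosen after their values were seen. Adarb1, a second RNA editing enzyme gene, read 8.49, 10.35 and 7.96 in AKR F1 tumours, against 7.98, 7.98 and 7.74 in DBA F1 tumours. Ifnb1, the interferon beta gene, read 6.17, 7.58 and 6.14 in AKR F1 tumours, against 6.06, 6.17 and 5.86 in DBA F1 tumours. Ripk3 read 6.48, 7.45 and 6.31 in AKR F1 tumours, against 6.56, 6.38 and 6.26 in DBA F1 tumours. On the same array 8 of the 9 sensor genes read lowest of their cross, as did 68.7% of other genes in brightness deciles 7 to 9.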
